A study of Homo sapiens with 18 samples.

Results

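The genes described here are 10 genes chosen by name from the 58302 genes of the count table: 5 genes of chromosome band 9p21 (CDKN2A, CDKN2B, CDKN2B-AS1, MTAP and KLHL9) and 5 genes on other chromosomes with the family name of cyclin-dependent kinase inhibitors (CDKN1B, CDKN1C, CDKN2C, CDKN2D and CDKN3). RNA was sequenced from U87MG, a human glioblastoma cell line that the labels call U87, in 2 libraries of cells in normal growth (control) and 2 libraries of cells given Erastin at 10 μM for 72 h. Erastin blocks the uptake of cystine and is used to induce ferroptosis, an iron-dependent death by lipid peroxidation. All 4 libraries come from this line, and the labels do not say whether the control cells received the solvent. The libraries held between 29412656 and 31513519 counts on genes. Of 7 markers of the line, 6 were tested, 3 were lower, 1 was higher and 2 did not pass. Over all genes tested, 23.7% were lower and 23.2% higher. VIM and CD44 had between 48117 and 77887 counts and between 31559 and 43669 counts in each library and fell by 0.60 and 0.36 on the log2 scale, S100A6 had between 30326 and 37227 counts and rose by 0.20, and NES, the intermediate filament of neural progenitors, fell from 1277 and 972 counts to 105 and 77 (log2 fold change −3.62, edgeR adjusted p = 3.97e-08). The glial markers GFAP and OLIG2 had between 41 and 88 counts and SOX2 between 0 and 6. Of the blood, epithelial, liver, neuron and oligodendrocyte markers tried, EPCAM with 3 to 14 counts had the most. The endothelial marker PECAM1 had 138 and 188 counts in control and 31 and 33 in Erastin cells, and the part of NES and PECAM1 in the results was not tested.

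CDK inhibitors hold back the kinases that drive the cell cycle. The INK4 proteins (p16 from CDKN2A, p15 from CDKN2B, p18 from CDKN2C and p19 from CDKN2D) bind CDK4 and CDK6, and the CIP/KIP proteins (p21 from CDKN1A, p27 from CDKN1B and p57 from CDKN1C) bind complexes of cyclins with CDK2 and other CDKs. CDKN3 shares only the name: it encodes a phosphatase that acts on CDK2 and CDK1, and its RNA is made mainly in dividing cells. CDKN2A also encodes ARF, which restrains the ubiquitin ligase MDM2. In many glioblastomas, and in the U87 line as it is generally known, the 9p21 region is deleted, and MTAP (an enzyme of methionine salvage) and KLHL9 (a substrate adaptor of a CUL3 ubiquitin ligase) are often lost with CDKN2A. The first question was therefore which of these inhibitors the cells had RNA for at all, and the second was how Erastin changed those that remained.

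Of the 10 genes, 7 had 0 counts in all 4 libraries. These were all 5 genes of 9p21, together with CDKN2C and CDKN1C. The remaining 3, CDKN1B, CDKN2D and CDKN3, had between 123 and 1694 counts in every library. A count of 0 allows up to 3 counts in a library if counts are independent. This corresponds to between 0.0954 and 0.100 CPM (counts scaled to a library of equal size with edgeR's TMM factors). The limit covers counting error only. Each read of a pair was counted separately, so a fragment can add 2 counts, and the limit is then too low. For comparison, 0 counts in all libraries were found for 3808 of 19708 protein-coding genes in the series, or 19.3%. Among genes of all types the number was 28709 of 58302, or 49.2%. No fold change is given for the 7 genes, since neither group had a count.

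**Figure D1:**
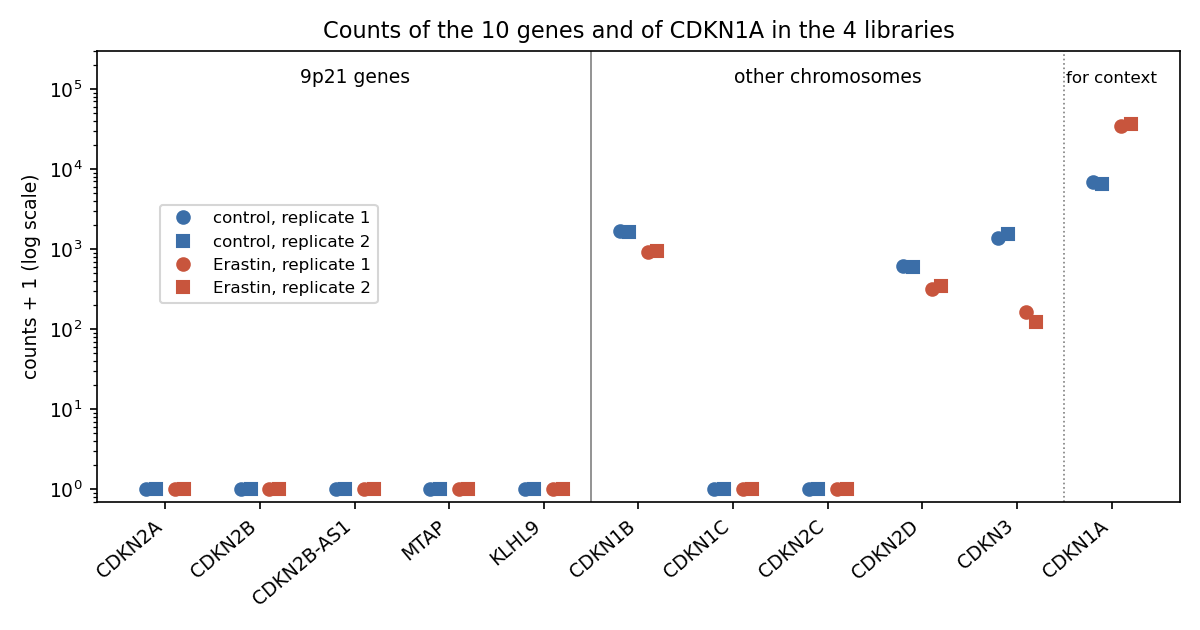
Counts of the 10 genes, and of CDKN1A for context, in each of the 4 libraries, as counts + 1 on a log axis; circles and squares are replicates 1 and 2. The 5 genes of 9p21, CDKN1C and CDKN2C lie at 0 counts in every library, and the 3 genes with counts are lower in both Erastin libraries.

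CDKN2A (ENSG00000147889) lies on the minus strand at chr9:21967753-21995301 of GRCh38, beside CDKN2B (ENSG00000147883) at chr9:22002903-22009363. CDKN2B-AS1 (ENSG00000240498), a long noncoding RNA also called ANRIL, starts inside CDKN2A on the other strand at chr9:21994778-22121097, and 341 bases of its exons, 7.88% of those of CDKN2A, are shared. Counting took no account of strand and left out reads on shared bases, but none of the RNAs had a count outside them either. MTAP (ENSG00000099810) lies at chr9:21802543-21937651 and KLHL9 (ENSG00000198642) at chr9:21329671-21335380. The counted exons, taken over all annotated transcripts of a gene, measured 4329 bases for CDKN2A, 4058 for CDKN2B, 4225 for CDKN2B-AS1, 14617 for MTAP and 5710 for KLHL9. A single RNA can be shorter. In GENCODE 44 the longest transcript measured 1052 bases for CDKN2A, 3853 for CDKN2B, 7173 for CDKN2B-AS1, 7557 for MTAP and 5740 for KLHL9.

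The absence of counts in 9p21 extended well beyond the 5 genes. CDKN2A stood in a run of 67 neighbouring genes, 24 of them protein-coding, and every one of the 67 had 0 counts in all 4 libraries. The other 43 were mostly pseudogenes and noncoding RNAs. Across the series, 49.2% of genes of all types and 19.3% of protein-coding genes had 0 counts. The protein-coding genes ran from MLLT3 to DMRTA1 (chr9:20341665-22455740, 2114 kb). They were 16 interferon genes, which most cells make only on infection, and 8 others: MLLT3, a subunit of the super elongation complex, FOCAD, HACD4, an enzyme of fatty acid elongation, KLHL9, MTAP, CDKN2A, CDKN2B and DMRTA1, a transcription factor gene. The nearest protein-coding genes with counts lay 3903 kb apart. On the telomeric side SLC24A2, a sodium, potassium and calcium exchanger, had 477 and 528 counts in control and 183 and 260 in Erastin cells. On the other side ELAVL2, which encodes a neuronal RNA-binding protein, had 63 and 55 counts in control and 12 and 10 in Erastin cells. Further out, RPS6, a ribosomal protein, had between 8721 and 12743 counts, and HAUS6, a subunit of the augmin complex of the spindle, had between 2950 and 3640.

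Within 3 Mb on either side of CDKN2A there were 34 protein-coding genes, and 26 of them had 3 or fewer counts in all libraries together. With noncoding genes included, the run began after a processed pseudogene with 6 counts and ended at CLIC4P1, a processed pseudogene with 47, 16, 29 and 32 counts in the 4 libraries. CLIC4P1 lies 753 kb from the start site of CDKN2A, and 32.7% of the 31-base words of its transcript occur elsewhere on the primary chromosomes. Along the autosomes, the stretch of 24 protein-coding genes ranked 5 in length among 2285 stretches of consecutive protein-coding genes without counts. The 4 longer ones began at OR4B1, CLDN17, PRAMEF11 and HMX1. The limit on total counts did not set the boundary among protein-coding genes: at a total of 10 or fewer the stretch still held 24.

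RNA counts cannot tell a deleted gene from a silent one, and DNA copy number was not analysed here. One technical measure was available. Reads that matched more than 1 place had not been counted, so, taking the longest transcript for every gene, its 31-base words were searched on the alternate scaffolds of the build, of which there are 261. For the 5 genes of 9p21 the share found there lay between 0 for CDKN2A and 5.39% for MTAP, and the share repeated elsewhere on the primary chromosomes lay between 1.08% for CDKN2B-AS1 and 12.7% for MTAP. Most of each transcript could therefore have given counted reads. Over the 24 protein-coding genes of the run, the repeated share had a median of 11.7% and reached 81.25%, for IFNA13. For the 8 other than interferon genes it reached 12.7%. Reads of several interferon genes could thus have gone uncounted, and the length of the run and its rank include these genes.

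**Figure D2:**
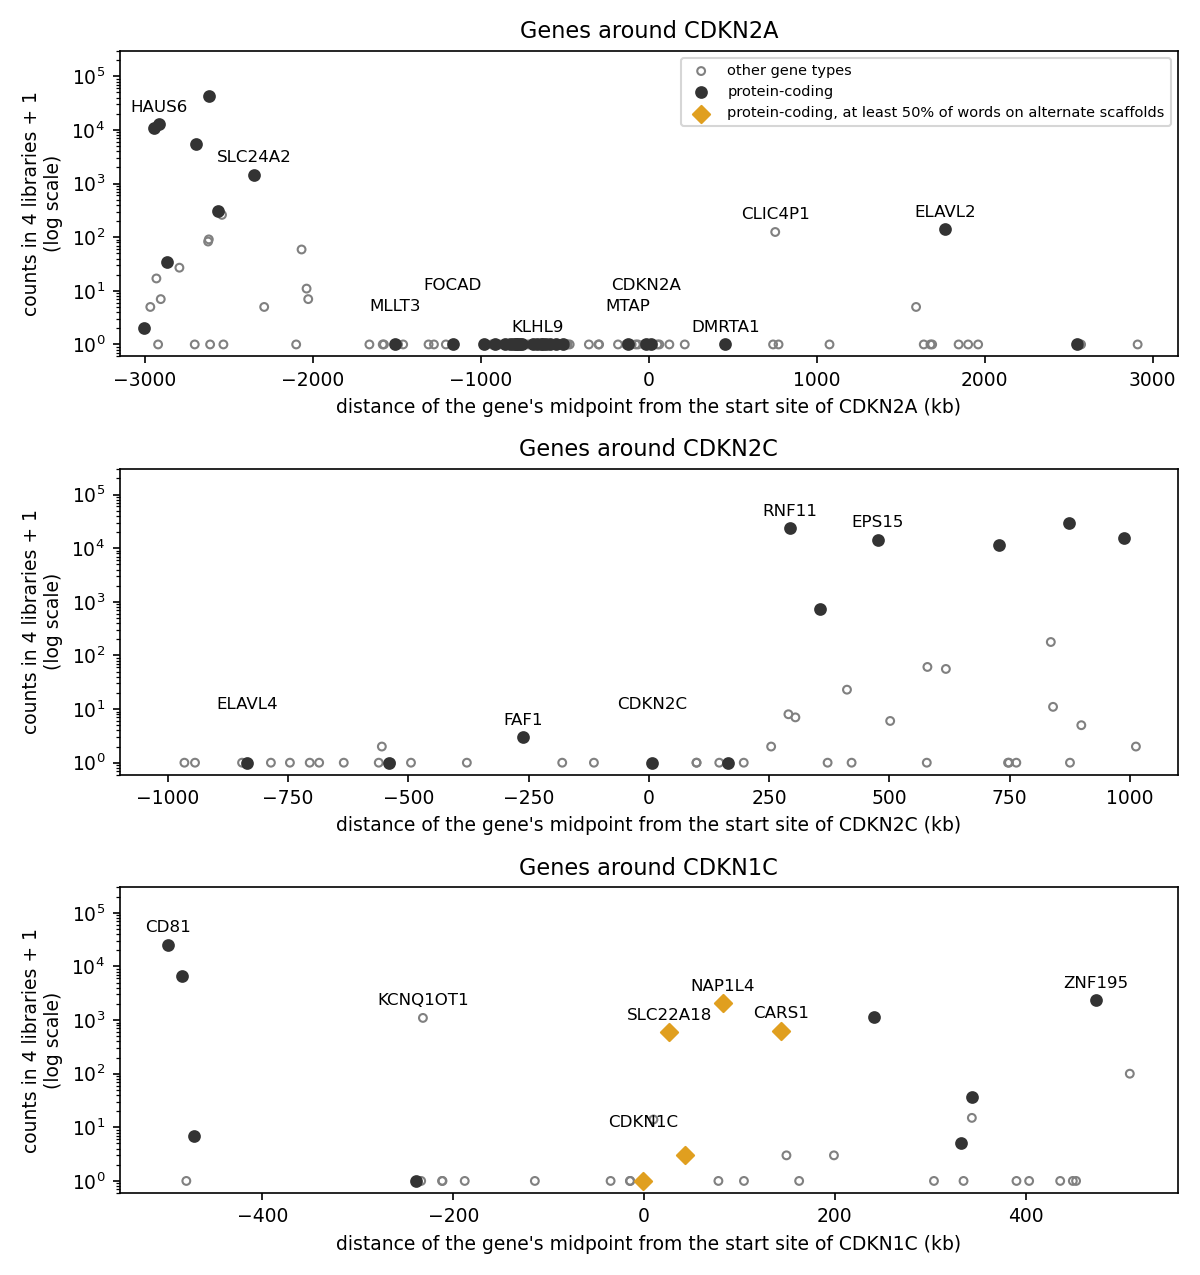
Counts summed over the 4 libraries, plus 1, on a log axis, for genes around CDKN2A, CDKN2C and CDKN1C, against the distance of each gene's midpoint from the start site in kb. Filled dots are protein-coding genes, open dots are other genes, and diamonds are protein-coding genes with at least 50% of their 31-base words on alternate scaffolds. Protein-coding genes from MLLT3 to DMRTA1 lie at 0 counts. CDKN2C lies at 0 and its protein-coding neighbours before RNF11 at 0 or, for FAF1, 2 counts, whereas the genes beside CDKN1C are mostly diamonds.

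The other 2 genes without counts differed in what their 0 could mean. CDKN2C (ENSG00000123080), the p18 gene, lies at chr1:50960745-50974633. None of its 31-base words occurred on alternate scaffolds or elsewhere on the primary chromosomes. It stood in a run of 30 genes with 4 counts in all, 5 of them protein-coding (ELAVL4, DMRTA2, FAF1, CDKN2C and C1orf185). FAF1, an adaptor of ubiquitin-dependent degradation on the other strand whose start lies beside that of CDKN2C, had 2 counts, both in an Erastin library. The run ended sharply at RNF11, a ubiquitin ligase, with 4745 and 4672 counts in control and 7183 and 6925 in Erastin cells. Beyond it lay TTC39A, with 281 and 234 counts in control and 114 and 105 in Erastin cells (log2 fold change −1.22), and then EPS15, an endocytic adaptor, with between 3164 and 3807 counts in each library.

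CDKN1C (ENSG00000129757), the p57 gene of the imprinted region of 11p15, lies at chr11:2883213-2885881. Of its 31-base words, 94.1% also occurred on alternate scaffolds. Whether the authors' index held these scaffolds is not given in the sources used here, so the 0 of CDKN1C was not read as a level. Its neighbours shared the property. SLC22A18, a membrane transporter with 94.0% of its words on alternate scaffolds, had 108 and 366 counts in control and 61 and 57 in Erastin cells. CARS1, the cytosolic cysteinyl-tRNA synthetase with 85.6%, had 520 and 22 counts in control and 42 and 48 in Erastin cells. NAP1L4, a histone chaperone with 82.8%, had 944 and 473 counts in control and 432 and 211 in Erastin cells. The control libraries lay far apart for all 3 genes, most of all for CARS1, and the Erastin libraries for NAP1L4. CD81, a cell-surface tetraspanin further along the chromosome, had 8043 and 8757 counts in control and 4373 and 4314 in Erastin cells. Of 10 listed genes of the imprinted region, 5 could be tested, 1 was higher and 4 were lower, at a median of −1.08 on the log2 scale. The 4 were SLC22A18 (−1.99), NAP1L4 (−1.13), KCNQ1OT1 (−1.08), the noncoding RNA of the imprinting centre, and CD81 (−0.94), and TSSC4 rose by 0.93. Over all genes tested, 23.2% were higher and 23.7% lower.

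All 3 genes with counts were lower in Erastin-treated cells, and none was higher, by edgeR's quasi-likelihood test at an adjusted p under 0.05. DESeq2 gave 3 lower and 0 higher as well, and at an unadjusted p under 0.05 from edgeR none was higher. Among all 16751 genes tested, 23.7% were lower and 23.2% were higher. At a log2 fold change of −1 or less, 1 of the 3 counted as downregulated (CDKN3), against 9.34% of all genes, and 0 of the 3 counted as upregulated at 1 or more, against 6.24%. The median log2 fold change of all genes tested was −0.0026. In these bulk samples, fewer cells of a kind and less RNA per cell cannot be told apart.

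CDKN1B (ENSG00000111276, chr12:12715058-12722371) encodes p27, the inhibitor that holds cyclin E and CDK2 in check in resting cells. It had 1694 and 1643 counts in control and 929 and 955 counts in Erastin cells. Replicates lay close together. Control cells held 54.1 ± 1.78 CPM (SD, n = 2) and Erastin cells 30.7 ± 0.470 CPM (SD, n = 2). This is a 1.76-fold fall, or −0.82 ± 0.0886 on the log2 scale (± standard error; edgeR adjusted p = 1.40e-05).

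CDKN2D (ENSG00000129355, chr19:10566462-10569059, minus strand) encodes p19, and was the only INK4 gene with counts. It had 619 and 592 counts in control and 315 and 346 counts in Erastin cells. In CPM the levels were 19.6 ± 0.840 (SD, n = 2) in control and 10.8 ± 0.339 (SD, n = 2) in Erastin cells. The 1.82-fold fall, −0.87 ± 0.129 on the log2 scale (edgeR adjusted p = 0.000170), was within 1 standard error of that of CDKN1B.

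CDKN3 (ENSG00000100526, chr14:54396849-54420218) fell much further. It had 1393 and 1547 counts in control and 163 and 123 counts in Erastin cells, or 47.6 ± 2.99 CPM (SD, n = 2) against 4.68 ± 1.08 CPM (SD, n = 2). The change was −3.35 ± 0.153 on the log2 scale (edgeR adjusted p = 1.01e-08), a 10.2-fold fall that ranked 144 from the largest fall among all genes tested. The genes whose pattern over the 4 libraries was most like that of CDKN3, by Euclidean distance of centred log2(CPM + 0.5), were KIF11, NDC80 and FPR1, at distances of 0.101, 0.108 and 0.127. KIF11, the kinesin that separates spindle poles, had 2024 and 2181 counts in control and 255 and 197 in Erastin cells. NDC80, a kinetochore protein, had 1026 and 1132 in control and 123 and 96 in Erastin cells. FPR1, the formyl peptide receptor of phagocytes, had 1535 and 1545 in control and 160 and 124 in Erastin cells.

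The promoters of the 3 genes that fell are shown because they differ in the elements of cell cycle genes, as RefSeq gives them for GRCh38.p14 from 250 bases before to 50 bases after the start site. Capitals mark 2 such elements on either strand: the CHR (TTTGAA or TTCGAA), bound by MuvB complexes, which repress such genes in resting cells and activate them before mitosis, and the CCAAT box (CCAAT), bound by NF-Y. CDKN3 lies at chr14:54396757-54397056 on the plus strand, CDKN1B at chr12:12717118-12717417 on the plus strand, and CDKN2D at chr19:10568930-10569229 on the minus strand.
CDKN3: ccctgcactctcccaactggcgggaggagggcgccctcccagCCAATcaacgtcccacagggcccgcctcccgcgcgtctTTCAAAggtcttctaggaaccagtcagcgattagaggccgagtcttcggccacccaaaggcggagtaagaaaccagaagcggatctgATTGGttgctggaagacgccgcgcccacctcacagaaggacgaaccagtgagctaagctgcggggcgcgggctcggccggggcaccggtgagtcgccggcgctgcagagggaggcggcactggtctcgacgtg
CDKN1B: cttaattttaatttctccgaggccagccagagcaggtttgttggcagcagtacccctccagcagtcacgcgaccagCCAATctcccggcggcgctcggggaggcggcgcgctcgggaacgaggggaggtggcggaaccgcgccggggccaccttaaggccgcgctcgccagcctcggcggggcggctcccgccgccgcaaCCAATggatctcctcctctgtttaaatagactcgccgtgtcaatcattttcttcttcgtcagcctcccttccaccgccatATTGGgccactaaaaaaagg
CDKN2D: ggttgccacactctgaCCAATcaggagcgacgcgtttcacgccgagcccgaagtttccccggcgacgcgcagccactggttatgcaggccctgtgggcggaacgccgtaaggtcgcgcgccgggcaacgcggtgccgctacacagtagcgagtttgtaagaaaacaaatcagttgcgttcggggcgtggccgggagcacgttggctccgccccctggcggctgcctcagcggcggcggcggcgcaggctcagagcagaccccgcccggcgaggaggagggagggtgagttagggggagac

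The promoter of CDKN3 held a CHR, read as TTCAAA, that begins at base −170, between CCAAT boxes that begin at −208 and −83. The promoter of CDKN1B held 3 CCAAT boxes, at −174, −50 and 31, and that of CDKN2D held 1, at −234. No CHR was present in the windows of CDKN1B and CDKN2D. Of 35116 promoters of this length, 16.4% held a CHR and 34.6% a CCAAT box. The E2F words TTTCGCGC and TTTGGCGC, present in 1.15% of promoters, and the forkhead word GTAAACA, present in 3.42%, were in none of the 3 windows. The GC box GGGCGG, present in 45.0%, occurred in those of CDKN1B and CDKN2D. No word found overlapped another. These matches describe the letters only. In all, 9 of the 10 genes had a promoter in the table, and CDKN1C had none.

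Levels of different genes were compared as CPM per kilobase of counted exon. This length departs from that of the longest transcript, with 1836 against 1070 bases for CDKN3 and 2811 against 4335 for CDKN1B. The order of genes and the shares below depend on the length used, which the SD does not cover. In control cells CDKN3 was highest at 25.9 ± 1.63 (SD, n = 2), followed by CDKN1B at 19.2 ± 0.632 (SD, n = 2) and CDKN2D at 13.1 ± 0.559 (SD, n = 2), and no neighbours in this order overlapped. In Erastin cells the order was CDKN1B at 10.9 ± 0.167 (SD, n = 2), CDKN2D at 7.16 ± 0.226 (SD, n = 2) and CDKN3 at 2.55 ± 0.591 (SD, n = 2), again without overlap. CDKN3 thus moved from first place to last.

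CDKN1A, which encodes p21 and is not among the 10 genes, moved the other way. It had 6861 and 6426 counts in control and 34400 and 36807 in Erastin cells, a rise of 2.43 ± 0.0692 on the log2 scale (edgeR adjusted p = 3.98e-10). Per kilobase its level rose from 70.6 ± 4.06 (SD, n = 2) to 380 ± 4.94 (SD, n = 2). The summed per-length level of the 7 INK4 and CIP/KIP genes rose from 103 ± 5.25 (SD, n = 2) to 398 ± 4.99 (SD, n = 2). CDKN1A made up 68.6% ± 0.446 (SD, n = 2) of this sum in control and 95.5% ± 0.0422 (SD, n = 2) in Erastin cells. The share of CDKN1B went from 18.7% ± 0.340 (SD, n = 2) to 2.74% ± 0.0764 (SD, n = 2), and that of CDKN2D from 12.7% ± 0.105 (SD, n = 2) to 1.80% ± 0.0341 (SD, n = 2). The ratio of CDKN1A to CDKN1B per length was 3.73 and 3.60 in control and reached 34.1 and 35.5 with Erastin. These shares leave CDKN1C unmeasured.

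**Figure D3:**
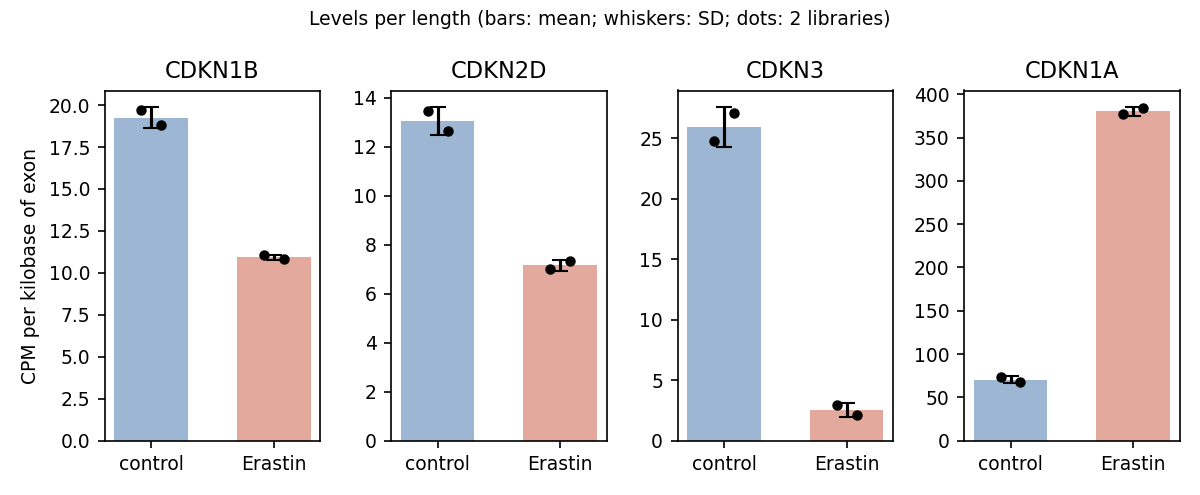
CPM per kilobase of counted exon for CDKN1B, CDKN2D, CDKN3 and CDKN1A in control and Erastin cells; bars are means of 2 libraries, whiskers the SD and dots the libraries, and each panel has its own axis from 0. CDKN1B, CDKN2D and CDKN3 are lower in Erastin cells, and CDKN1A rises from 70.6 to 380.

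The kinases and cyclins that the inhibitors bind were a list of 12 genes. All were tested, 7 were lower, 1 was higher and 4 did not pass, and 5 were downregulated. The median log2 fold change was −0.77, against −0.0026 for all genes, of which 23.7% were lower, 23.2% higher and 9.34% downregulated. The largest falls were those of CCNB1 (−3.82) and CCNB2 (−3.27), the mitotic cyclins, CDK1 (−2.97), their kinase, and CCNA2 (−2.79), the cyclin of S and G2 phase. The INK4 targets, named for their role after their values were seen, moved apart: CDK4 rose from 3509 and 3431 counts to 4417 and 4686 (log2 fold change 0.40, adjusted p = 0.000419 from edgeR), and CDK6 fell from 1365 and 1564 counts to 678 and 827 (−0.95, adjusted p = 2.25e-05 from edgeR). CDK2, the target of p27, fell from 1552 and 1493 counts to 487 and 610, with a log2 fold change of −1.47. CCND1, the main D-type cyclin here with between 11589 and 13814 counts, had a log2 fold change of 0.17 and did not pass the test (adjusted p = 0.0651 from edgeR).

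Downstream of the kinases lie the pocket proteins and the E2F factors. Of 11 genes, 10 were tested, 5 were lower and 3 higher, and 3 were downregulated, with a median of −0.20. Beside this stand 23.7% lower, 23.2% higher and 9.34% downregulated among all genes tested. E2F8 (−1.67) and E2F1 (−1.62), which are themselves made at the G1/S transition, and the pocket protein RBL1 (−1.17) fell most, whereas E2F7 rose by 0.85. RB1, the retinoblastoma gene, had between 1575 and 1926 counts and a log2 fold change of −0.17 that did not pass (adjusted p = 0.0913 from edgeR). The remaining gene, E2F2, had 0 counts in all libraries.

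Genes that act on p27 itself moved in both directions, as did all genes tested, of which 23.7% were lower and 23.2% higher. Of 8 genes of its degradation, 3 were lower, 2 were higher and 3 did not pass, with a median of −0.084. CKS1B, the cofactor through which SKP2 recognises p27, fell by 1.35 on the log2 scale, UBAC1 (a subunit of the KPC ligase) by 0.61 and SKP2 itself by 0.55. SKP1 rose by 0.37 and RNF123, the other subunit of the KPC ligase, by 0.29. Of 5 transcription regulators of CDKN1B, 1 was lower (FOXO1, −0.62), 1 was higher (FOXO3, 0.40) and 3 did not pass, with a median of 0.041.

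Around the products of CDKN2A, the list of ARF and MDM2 genes had 1 of 4 higher, 2 lower and 1 that did not pass, with a median of 0.030. For this list and the Polycomb genes below, the shares over all genes tested were 23.2% higher and 23.7% lower. MDM2, the ligase that ARF inhibits, rose from 2404 and 2418 counts to 12830 and 13068. Its log2 fold change was 2.43 (adjusted p = 3.69e-10 from edgeR), the same to 2 decimals as that of CDKN1A. MDM4, its relative, fell by 0.68 and NPM1, which holds ARF in the nucleolus, by 0.27 on the log2 scale. Of 7 Polycomb genes, whose complexes silence CDKN2A in cells that have it, 3 were higher and 2 lower, with a median of 0.047. EZH2, the methyltransferase, fell by 1.03 on the log2 scale, and CBX8 rose by 0.90 at low counts of 127 and 122 against 198 and 266.

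MTAP cleaves methylthioadenosine, a by-product of polyamine synthesis, and returns it to methionine. Of 9 genes of this route, MTAP was at 0, and of the 8 tested 2 were higher, 3 were lower and 3 did not pass, with a median of −0.090. For this list and the next, the shares over all genes tested were 23.2% higher and 23.7% lower. ADI1, a later enzyme of salvage, rose by 0.94 and ODC1, the entry enzyme of polyamine synthesis, by 0.65, whereas MRI1, which acts just after MTAP, fell by 0.87 and SMS, spermine synthase, by 0.62 on the log2 scale. Cells without MTAP are known to depend on PRMT5 and MAT2A. Of 6 genes of this dependence 1 was higher (WDR77, the partner of PRMT5, 0.31) and 5 did not pass, with a median of 0.079. PRMT5 had 715 and 606 counts in control and 706 and 850 in Erastin cells, and did not pass (log2 fold change 0.24, adjusted p = 0.144 from edgeR), and MAT2A had a log2 fold change of −0.13 (adjusted p = 0.229 from edgeR).

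KLHL9 works with KLHL13 and CUL3 to move the mitotic kinase AURKB off chromosomes. In this list of 6 genes KLHL9 was at 0, and of the 5 tested 1 was higher, 2 were lower and 2 did not pass, with a median of −0.16. Here too, 23.2% of all genes tested were higher and 23.7% lower. AURKB fell from 1288 and 1432 counts to 176 and 200 (log2 fold change −2.85), KLHL13 fell by 0.53 on the log2 scale, and KLHL21, an adaptor of the same ligase, rose from 4868 and 4559 counts to 12114 and 11836 (1.35). CUL3 had between 2476 and 2572 counts in every library and did not pass (adjusted p = 0.669 from edgeR).

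**Figure D4:**
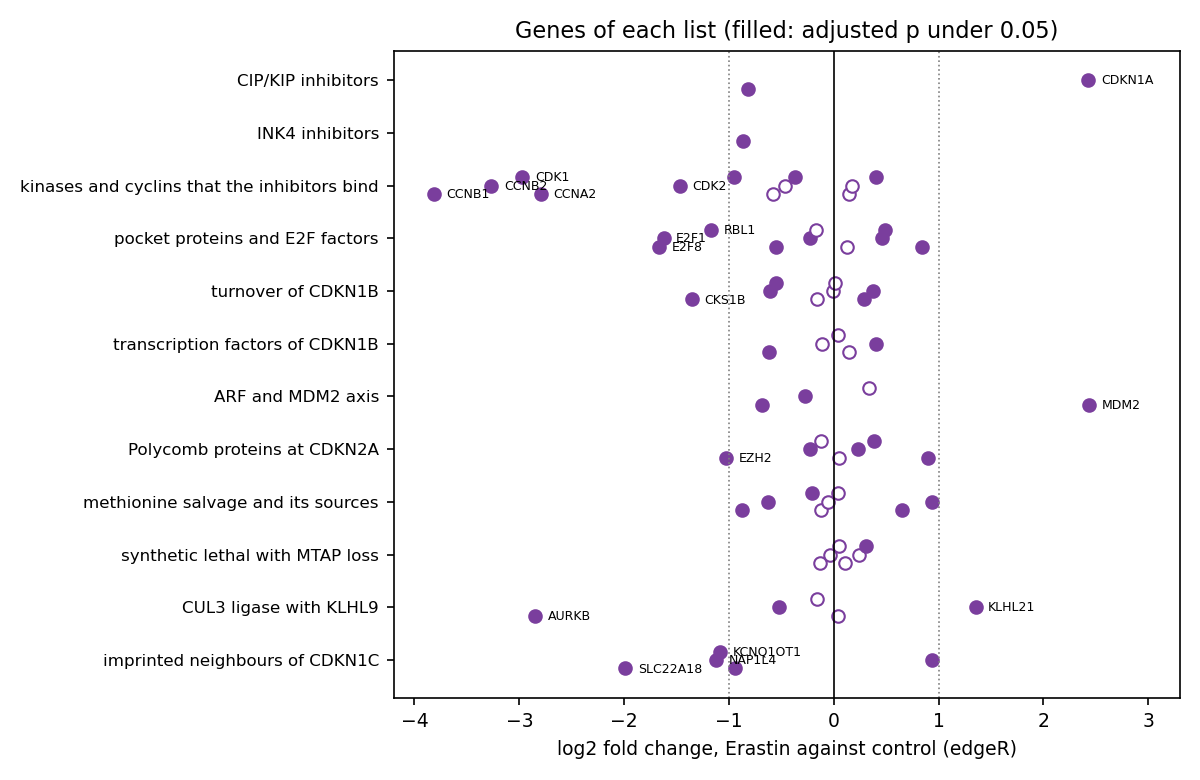
Log2 fold change, Erastin against control, of each tested gene of the pathway and neighbour lists (cell type markers are not plotted); filled points have an adjusted p under 0.05 from edgeR, dotted lines mark −1 and 1, and genes at or beyond them are named. Of the plotted genes, the mitotic cyclins, CDK1 and AURKB lie farthest to the left, and CDKN1A and MDM2 lie together at 2.43.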

How the data were processed

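Per the labels and file header, the authors aligned reads to hg38 with HISAT2 2.1.0 and counted them with featureCounts on the Ensembl release 90 annotation, without strand, with each read of a pair counted separately and reads on more than 1 place or gene left out. The deposited values are raw counts per gene, not normalized. The first count column of the deposited table was entered as estimated counts, but its values were whole numbers and rounding changed none. All count columns were fitted alike. Here, in R 4.3.3, edgeR 4.0.16 tested control against Erastin (2 libraries each, grouped by label) with TMM, filterByExpr (minimum count 10, 16751 genes kept), the quasi-likelihood test (two-sided) and Benjamini-Hochberg adjustment over all genes tested. The biological coefficient of variation was 10.3%. With 2 libraries in each group, the smallest two-sided p of an exact permutation test is 0.333. P-values measure the spread between libraries; whether these came from separate cultures is not given in the labels.

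The 10 genes and the gene lists were chosen with earlier results of these data known. The text names all 10, CDKN1A, up to 4 genes of each list with the largest change among those past the test, genes of interest that did not pass, neighbours in order, and the 3 genes with the pattern nearest that of CDKN3. Other names were chosen after their values were seen, and 1 gene of the ARF and MDM2 list is not reported here. Exon lengths came from the deposited table, gene types and transcripts from GENCODE 44 and promoters from RefSeq. A gene without counts had 3 or fewer counts over all libraries. The method was tested on simulated data. Alternatives were DESeq2 1.42.0, other scalings and filters, glmTreat, the replicate block, counts divided by 2, and each library left out. ChIP-seq and HiChIP data were not analysed here.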

Additional observations from a re-analysis of the deposited data

How the results depend on the processing

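Of 116 values recomputed under an alternative, 109 were classed as the same, 2 as weaker and 5 as moved, and 0 as reversed. The first class allowed shifts in size. With at least 10 counts required in every library, 791 genes were upregulated and 1341 downregulated. With library totals in place of TMM, CDKN1B in Erastin cells stood at 11.1 CPM per kilobase in place of 10.9, which was classed as moved. With edgeR's glmTreat, which tests the fold change against 1 on the log2 scale, CDKN1B (−0.82) and CDKN2D (−0.87) no longer passed (adjusted p = 1 for each), by construction since both changes are smaller than 1, so that 1 of the 10 genes was lower, and 377 genes were upregulated and 748 downregulated in place of 1046 and 1564. Counting protein-coding genes only, the run around CDKN2A held 24 genes in place of 67. Leaving out 1 library at a time put the log2 fold change between −0.86 and −0.79 for CDKN1B, between −0.92 and −0.83 for CDKN2D and between −3.61 and −3.13 for CDKN3, and the largest adjusted p from edgeR was 0.00190, for CDKN2D. With the replicate block the log2 fold changes were −0.82, −0.87 and −3.36, with 1039 genes upregulated and 1568 downregulated, and no call on these genes changed. The labels do not pair the libraries by number, and over genes, which are not independent, deviations of same-numbered libraries from the group mean correlated at 0.0203. Depth limits the genes at 0 to the bound of 3 counts per library, which is too low where both reads of a pair were counted. Having 2 libraries per group limits every error given.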

Other observations

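E2F2, an activating E2F factor that had 0 counts, was examined after its values were seen. It lay at chr1:23506430-23531220 in a run of 10 genes with 0 counts in all 4 libraries. The 5 protein-coding genes of the run were ZNF436, TCEA3 (an elongation factor), ASAP3 (an Arf GTPase-activating protein), E2F2 and ID3 (an inhibitor of basic helix-loop-helix factors). HNRNPR, an RNA-binding protein next to the run, had 0 and 2 counts in control and 0 and 4 in Erastin cells. On the other side the run ended at MDS2, a noncoding RNA with 2 and 1 counts in control and 10 and 27 in Erastin cells. The next protein-coding gene there, RPL11, a ribosomal protein, had between 9375 and 13153 counts in each library. On the far side of HNRNPR, LUZP1 had 11766 counts over the 4 libraries. Of the 31-base words of E2F2, 2.94% occurred on alternate scaffolds, and of those of HNRNPR 0.0518%. DNA copy number was not analysed here.

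Among the genes with counts that flank the stretch of 9p21 without counts, ACER2, an alkaline ceramidase, had 24 and 40 counts in control and 85 and 153 in Erastin cells, a rise of 1.89 ± 0.377 on the log2 scale (± standard error; edgeR adjusted p = 0.00144). SLC24A2 and ELAVL2 had log2 fold changes of −1.18 and −2.40 (adjusted p = 0.000134 and 0.00116 from edgeR), so that the protein-coding genes nearest to the stretch on either side fell, ELAVL2 from low counts.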
